A study of Mus musculus with 2 samples.

Results

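Vgll3 and 9 genes of the YAP/TAZ and TEAD system were followed in costal-cartilage-derived stem cells (CDSCs) of the mouse before and after expansion in culture. The genes were Vgll3, the coactivator genes Yap1 and Wwtr1, the DNA-binding partners Tead1 and Tead2, and the target genes Ccn1, Ccn2, Ankrd1, Amotl2 and Ajuba. They are 10 of the 21849 genes in the deposited matrices and were found by symbol. Vgll3 had been chosen because its level was much higher in culture, so its difference is a description, and the other 9 were taken with these libraries already known. CDSCs were digested from rib cartilage of newborn CD45.1 or ZsGreen mice on a C57BL/6J background and sorted as CD45-CD51+ cells. The primary CDSCs were sequenced without expansion, and the cultured CDSCs had reached passages 2 to 3 in MEM with fetal bovine serum. For both libraries the labels name bone marrow as the tissue. With 1 library per group, the differences below carry no spread between replicates and none was tested.

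YAP, encoded by Yap1, and TAZ, encoded by Wwtr1, carry no DNA-binding domain and act on genes through the TEAD proteins, which read the core GGAATG. The Hippo kinases phosphorylate YAP and TAZ and keep them out of the nucleus, and spreading on a stiff surface or tension in the actin skeleton lets them in. The vestigial-like proteins, VGLL3 among them, also bind TEAD proteins. Transcript levels do not show whether YAP or TAZ was in the nucleus.

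The DNA before the starts of these genes is given first, because the core read by TEAD proteins lies in most of these stretches. RefSeq start sites on GRCm38.p6 were matched for 8 of the 10 genes, all except Tead1 and Ccn2. Of these 8, 7 had the core GGAATG on one of the strands in the 250 bases before an annotated start, and 12.6% of 32851 such windows of all genes had it. The 7 are genes with a match in any of their windows, whereas the 12.6% counts single windows. Since the list holds genes chosen as targets of this system, nothing is read from 7 of 8 against this share. A match is a description of letters and not evidence of binding. The 9 matches, each with 10 bases on either side, are printed here on the strand that reads GGAATG, with the core in capitals, to let the neighbouring bases be compared.
Vgll3, chr16:65815116-65815141, minus strand: cagggtagccGGAATGtggggaggcg
Yap1, chr9:8004722-8004747, minus strand: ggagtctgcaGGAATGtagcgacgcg
Wwtr1, chr3:57576031-57576056, minus strand: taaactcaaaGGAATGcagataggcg
Ccn1, chr3:145650073-145650098, plus strand: aaacatctcaGGAATGttggttggcg
Ankrd1, chr19:36120039-36120064, minus strand: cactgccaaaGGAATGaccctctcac
Ankrd1, chr19:36119952-36119977, minus strand: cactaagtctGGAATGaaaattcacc
Amotl2, chr9:102717729-102717754, minus strand: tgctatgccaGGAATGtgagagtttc
Ajuba, chr14:54577832-54577857, plus strand: ggggcactgtGGAATGtatccatcaa
Ajuba, chr14:54577810-54577835, plus strand: gtttacagttGGAATGcgcggagggg

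The core began 63 bases before the Vgll3 start and 103 bases before the Ccn1 start, on the strand opposite to the gene in both. Ankrd1 and Ajuba had 2 copies each, at 210 and 123 bases for Ankrd1 and at 186 and 164 bases for Ajuba. All distances are from RefSeq starts. The GENCODE gene coordinates printed below start elsewhere for Vgll3, Tead2, Ccn1, Ankrd1, Amotl2 and Ajuba. Matches before GENCODE starts were not counted, so the matches hold for the RefSeq starts only. The Ankrd1 window lies within exons of another annotated Ankrd1 transcript in all of its 250 bases. Exons of the gene itself also covered 136 of the 250 bases for Amotl2, 39 for Tead2 and 34 for the second of the Wwtr1 windows, and none for Vgll3, Yap1, Ccn1, Ajuba and the first Wwtr1 window. The Tead2 window had no copy. Letters of an AP-1 site (TGANTCA) stood in 6.75% of all windows and those of a CArG box, the site read by SRF, in 1.47%, and no window of these genes had either. The whole windows of Vgll3 and Ccn1 are shown because these genes moved furthest up and down between the libraries among the 10, with the core in capitals (CATTCC where it is read from the other strand).
Vgll3, chr16:65814939-65815188, plus strand: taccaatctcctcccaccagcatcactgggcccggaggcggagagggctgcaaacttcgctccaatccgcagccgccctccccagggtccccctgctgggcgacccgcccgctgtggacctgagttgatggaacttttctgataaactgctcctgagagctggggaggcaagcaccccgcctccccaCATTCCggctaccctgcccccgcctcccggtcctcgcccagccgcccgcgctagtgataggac
Ccn1, chr3:145649986-145650235, minus strand: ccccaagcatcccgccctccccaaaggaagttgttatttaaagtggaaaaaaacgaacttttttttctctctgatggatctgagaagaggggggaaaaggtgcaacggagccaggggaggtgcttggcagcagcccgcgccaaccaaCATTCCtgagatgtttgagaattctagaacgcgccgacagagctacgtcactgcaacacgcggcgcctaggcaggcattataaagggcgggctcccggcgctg

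**Figure D1:**
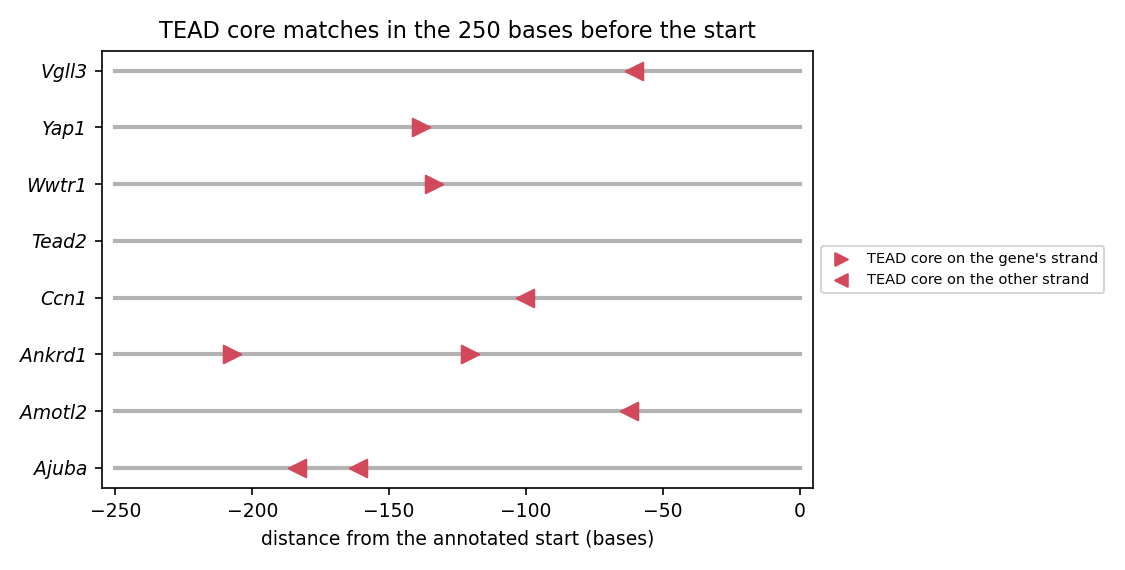
Positions of the TEAD core in the 250 bases before the annotated start of 8 genes, in bases from the start (x axis), with the triangle pointing right where the core reads on the strand of the gene and left where it reads on the other. Of the 8 genes, 7 had at least 1 match, Ankrd1 and Ajuba had 2, and for Wwtr1 the first of its 2 annotated starts is drawn.

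The measurements were unique molecular identifiers (UMIs), tags that count captured transcripts 1 by 1. Barcodes were taken as cells when they held 500 or more genes and 1000 or more UMIs, with no more than 10% of UMIs from mitochondrial genes, which left 11746 primary cells with 137148874 UMIs and 5338 cultured cells with 330129909 UMIs. The median depth was 10026.5 UMIs per primary and 56864.5 UMIs per cultured cell. Of the barcodes, 32 occurred in both libraries. Itgav, which encodes CD51, stood at 92.5 CPM (UMIs per 1000000 UMIs of the library) in primary CDSCs and 109 CPM in cultured CDSCs, and Ptprc, which encodes CD45, at 0.620 and 0.345 CPM. The libraries differed in donor genes. The reporter ZsGreen had 60957 UMIs in primary CDSCs and 0 in cultured CDSCs, and the Y-linked gene Uty had 11 and 20195. Donor and culture therefore cannot be told apart in any value below. Chondrocyte markers summed to 83199.8 CPM in primary CDSCs and 1114 CPM in cultured CDSCs. Of these markers, 11 of 13 were at least 4-fold lower in culture, against 5.73% of all genes that reached 10 CPM in one library or both.

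Across the 10 genes the system did not move one way. Vgll3, Ankrd1, Tead2 and Ajuba were at least 4-fold higher in cultured CDSCs, Ccn1 and Ccn2 at least 4-fold lower, and Yap1, Wwtr1, Tead1 and Amotl2 lay between. All 10 were among the 9115 genes that reached 10 CPM in one library or both. Of those 9115 genes, 10.6% passed 4-fold upward and 5.73% downward. Since the genes were chosen with this contrast in view, nothing is read from 4 and 2 of 10 against these shares. The log2 ratios had a median of 1.16 over the 10 genes and of 0.37 over all 9115. The intervals printed here are exact, at the 95% level, and take in counting error alone.

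**Figure D2:**
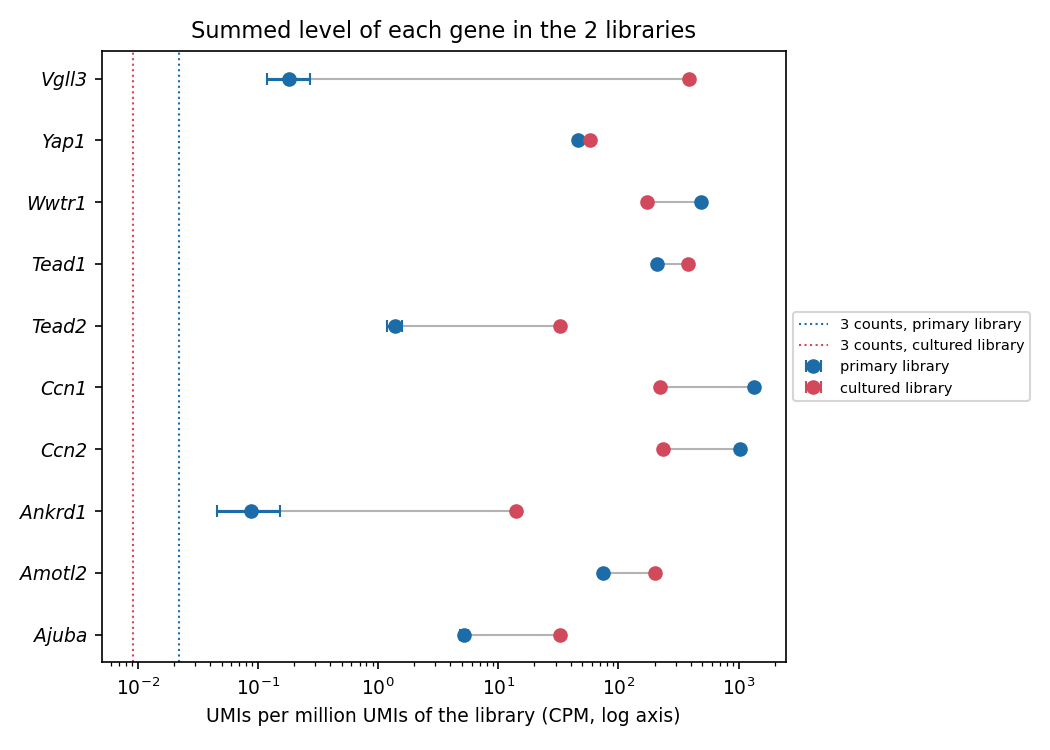
Summed level of each of the 10 genes in the primary (blue) and cultured (red) library, in CPM on a log axis, with exact 95% counting intervals that are often narrower than the point, and dotted lines at the level of 3 counts in each library. Vgll3 moved from 0.182 to 388 CPM and Ankrd1 from 0.0875 to 14.0 CPM, whereas Ccn1 and Ccn2 moved from above 1000 CPM to 223 and 233 CPM.

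Vgll3 (ENSMUSG00000091243, chr16:65815257-65866368, plus strand) encodes a cofactor of the TEAD proteins. It had 25 UMIs, or 0.182 CPM (0.118 to 0.269), in the primary library and 128174 UMIs, or 388 CPM (386 to 390.4), in cultured CDSCs. The log2 ratio was 11.06 (10.49 to 11.68), about 2129.9-fold. Only 1 of the 9115 genes had a higher ratio. The 25 primary UMIs were spread over 24 cells of 8 clusters, no cell had more than 2, and none of the 24 had a barcode that also occurred in cultured CDSCs. When every cell was thinned to 5000 UMIs, 9 of 10959 primary cells (0.0821%, 0.0376 to 0.156) and 3444 of 4543 cultured cells (75.8%, 74.5 to 77.0) had a Vgll3 UMI. Without thinning the shares were 0.204% and 90.9%. Of the thinned cultured cells, 50.1% had at least 2 Vgll3 UMIs and 29.96% at least 3, against 0.00912% and 0% of the primary cells.

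As a background for these shares, 9 cultured cells were haematopoietic-like, led by Pf4 and Lyz2, and should lack a mesenchymal transcript. Of them, 3 (33.3%, 7.49 to 70.1) had a Vgll3 UMI after thinning, at a median depth of 35946 UMIs before it. Among the other 4534 thinned cultured cells, with a median of 66474 UMIs, the share was 75.9%. The summed Vgll3 level was 109 CPM (78.9 to 146) in the 9 cells and 388 CPM in the others. Ccn2 stood at 232 CPM in the 9 cells against 233 CPM in the others, and Tead1 at 202 against 383 CPM. Wwtr1 was at 111 against 172 CPM, Ccn1 at 109 against 223 CPM, and Amotl2 at 61.7 against 203 CPM. Ajuba was at 17.3 against 32.4 CPM and Tead2 at 7.40 against 32.7 CPM. Yap1 was at 4.93 CPM (0.598 to 17.8) in the 9 cells against 58.4 CPM in the others. Ankrd1 had no UMI in the 9 cells and was at 14.0 CPM in the others. Where the UMIs in the 9 cells came from was not tested.

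**Figure D3:**
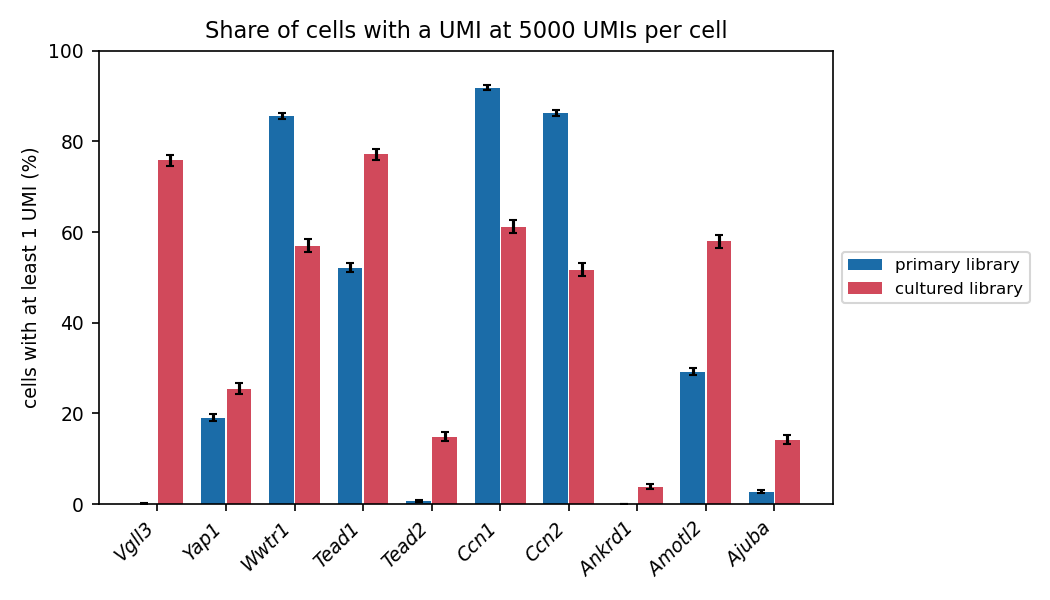
Percentage of cells in which each gene had a UMI after thinning to 5000 UMIs per cell, in percent (y axis), for 10959 primary (blue) and 4543 cultured (red) cells, with exact binomial 95% intervals. Vgll3 was seen in 75.8% of cultured cells and in 0.0821% of primary cells, and Ankrd1 in only 3.85% of cultured cells.

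Among the vestigial-like genes, Vgll4, a further TEAD cofactor, was at 91.3 CPM in primary CDSCs and 129 CPM in cultured CDSCs, a log2 ratio of 0.50. Vgll1 had no UMI in either library, and Vgll2 had 1 and 4. Vgll3 thus made up 0.199% (0.129 to 0.294) of the UMIs of the 4 genes in primary CDSCs and 75.0% (74.8 to 75.2) in cultured CDSCs. Such shares also carry how well the 3′ end of each transcript was captured, so only the difference between the libraries is read.

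The coactivator genes differed from each other. Yap1 (chr9:7931999-8004596, minus strand) was at 46.2 CPM (45.02 to 47.3) in primary CDSCs and 58.4 CPM (57.6 to 59.2) in cultured CDSCs, a log2 ratio of 0.34 (0.30 to 0.38). That is close to the median of all genes, and relative to that median it was -0.03. Wwtr1 (chr3:57455649-57575910, minus strand) was at 483 CPM (479 to 487) in primary CDSCs and 172 CPM (171 to 174) in cultured CDSCs, a log2 ratio of -1.49 (-1.50 to -1.47). At 5000 UMIs per cell, a Yap1 UMI was found in 19.0% of primary and 25.5% of cultured cells, and a Wwtr1 UMI in 85.6% and 57.0%. Yap1 made up 8.72% of the UMIs of the pair in primary CDSCs and 25.3% in cultured CDSCs.

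Tead1 (chr7:112679318-112906807, plus strand) was at 209.8 CPM (207 to 212) in primary CDSCs and 383 CPM (381 to 385) in cultured CDSCs, a log2 ratio of 0.87 (0.85 to 0.89). Tead2 (chr7:45215753-45233644, plus strand) had 188 UMIs, or 1.37 CPM (1.18 to 1.58), in primary CDSCs and 32.7 CPM (32.1 to 33.3) in cultured CDSCs, a log2 ratio of 4.58 (4.37 to 4.79). Of the other TEAD genes, Tead4 was at 6.42 and 17.3 CPM, and Tead3 was below 10 CPM in both libraries. The share of Tead2 in the UMIs of the 4 TEAD genes was 0.608% in primary CDSCs and 7.38% in cultured CDSCs, and that of Tead1 was 93.1% and 86.5%. A Tead2 UMI was found in 0.684% of primary and 14.9% of cultured cells at 5000 UMIs.

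Ccn1 and Ccn2 encode secreted matrix proteins formerly named CYR61 and CTGF and are widely used as a readout of YAP and TAZ. Both were lower in culture as a share of all UMIs. The median cell had 10026.5 UMIs in primary and 56864.5 in cultured CDSCs. Depth and RNA content cannot be told apart here, so amounts per cell were not compared. Ccn1 (chr3:145646976-145649981, minus strand) was at 1354 CPM (1347.5 to 1359.8) in primary CDSCs and 223 CPM (221 to 224) in cultured CDSCs, 6.07-fold lower, with a log2 ratio of -2.60 (-2.62 to -2.59). Ccn2 (chr10:24595442-24598683, plus strand) was at 1027 CPM (1022 to 1032.5) and 233 CPM (232 to 235), 4.40-fold lower, with a log2 ratio of -2.14 (-2.15 to -2.13). The Ccn2 ratio was -1.99 in thinned cells and -1.89 when each cell weighed the same, which puts it inside 4-fold. At 5000 UMIs per cell, the median cell held 6 Ccn1 UMIs in primary CDSCs and 1 in cultured CDSCs, and 4 and 1 Ccn2 UMIs. A Ccn1 UMI was found in 91.8% of primary and 61.1% of cultured cells, and a Ccn2 UMI in 86.2% and 51.7%.

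The immediate early genes, which cells switch on within minutes of stimuli such as serum or tissue dissociation, moved in the same direction. Of 13, 11 were at least 4-fold lower in culture, against 5.73% of all tested genes, with a median log2 ratio of -3.14. Their summed level was 20519.8 CPM in primary CDSCs and 2345 CPM in cultured CDSCs. Atf3 was at 1189 and 23.0 CPM, Egr2 at 56.4 and 2.88 CPM, and Fos at 5378 and 308 CPM. The least lowered were Egr3 at 44.8 and 26.0 CPM, Ier3 at 534 and 274 CPM, and Btg2 at 1365 and 282 CPM. Of 7 heat shock genes, 3 were at least 4-fold lower (Hspa1a, Hspa1b and Dnajb1, with log2 ratios of -6.33, -5.59 and -3.35), and Hspb1, Hspe1 and Hsp90aa1 had ratios of 0.22, 0.29 and 0.53. Across cells at 5000 UMIs, the correlation of Ccn1 with the summed immediate early genes was r = 0.08 in 10959 primary cells and 0.31 in 4543 cultured cells, and that of Ccn2 was 0.03 and 0.24. With the summed SRF and MRTF genes, which are taken up below, r for Ccn1 was 0.22 in primary and 0.13 in cultured cells. For Ccn2 it was 0.15 and 0.19. In primary cells both genes had the higher r with that sum, and in cultured cells with the summed immediate early genes. These values are descriptions within 1 library each, and the part of the immediate early response in the Ccn1 and Ccn2 difference was not tested.

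The other targets were higher in culture. Ankrd1, a nuclear ankyrin-repeat protein first studied in heart muscle (chr19:36111961-36120099, minus strand), had 12 UMIs in 12 primary cells, or 0.0875 CPM (0.0452 to 0.153), and 14.0 CPM (13.6 to 14.4) in cultured CDSCs, a log2 ratio of 7.33 (6.52 to 8.28). Ajuba, a LIM protein that holds back the LATS kinases (chr14:54567472-54577558, minus strand), was at 5.19 CPM (4.82 to 5.59) and 32.4 CPM (31.8 to 33.1), a log2 ratio of 2.64 (2.53 to 2.75). Amotl2, an angiomotin that binds YAP (chr9:102716672-102733418, plus strand), was at 74.3 CPM (72.9 to 75.8) and 203 CPM (201 to 204), a log2 ratio of 1.45 (1.42 to 1.48). At 5000 UMIs per cell, an Amotl2 UMI was found in 29.2% of primary and 57.9% of cultured cells, an Ajuba UMI in 2.75% and 14.2%, and an Ankrd1 UMI in 0.0456% and 3.85%.

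Ankrd1 had the most uneven spread of the 10 genes over cultured cells. At 5000 UMIs, the 45 cells with the most Ankrd1 (1% of the cells) held 56.1% of its 305 UMIs, and a single cell had up to 15. For the other 9 genes the corresponding share in culture ran from 5.10% for Wwtr1 to 13.7% for Ajuba, with 5.41% for Vgll3. Rare genes give high shares by counting alone, but Ajuba and Tead2, also below 0.2 UMIs per cell, had variances of 1.04 and 1.01 times their mean, near the value of 1 that counting alone gives. The variance of Ankrd1 was 3.39 times its mean. For Ccn2 it was 3.13, for Tead1 1.93 and for Vgll3 1.87 in culture. In the primary library Ccn2 and Ccn1 had the highest values, 4.97 and 4.69.

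Each library was clustered on its own, and the levels within clusters are descriptions, as the clusters were made from the same cells. In all 10 primary clusters Vgll3 lay between 0 and 0.608 CPM. Of these clusters 9 were chondrocyte-like, including cluster 10, whose leading genes are those of dividing cells, and cluster 8, with 288 cells led by Col1a1 and Postn, stayed unnamed, since it had 4 markers each of fibroblasts, endothelial cells and mast cells in excess over the other cells, beside 7 chondrocyte markers above 1000 CPM. In cluster 8 Tead2 was at 14.2 CPM (9.99 to 19.6) against 0.228 to 2.98 CPM in the other 9, and the cluster held 19.7% of the primary Tead2 UMIs with 2.45% of the cells. Yap1 was also highest there, at 86.7 CPM (75.7 to 98.7). Ccn1 ranged from 662 CPM in cluster 9 to 1852 CPM in cluster 7, and Ccn2 from 487 CPM in cluster 9 to 1241 CPM in cluster 3. Cluster 9 also had the lowest summed immediate early genes, 7873 CPM against up to 24936.5 CPM, and over the 10 clusters of this library r was 0.51 for Ccn1 and 0.62 for Ccn2 against that sum. Cluster 9 had the lowest summed SRF and MRTF genes as well, 464 CPM against up to 1471 CPM, and r with that sum was 0.52 for Ccn1 and 0.38 for Ccn2.

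In the cultured library 7 clusters had at least 50 cells. Of the 7, 6 had fewer than 3 markers of any fixed cell type in excess over the other cultured cells. Cluster 7 had 3 such markers of fibroblasts and 3 of smooth muscle, so all are given by number and leading genes. Markers shared by the clusters are not counted by this rule. The cultured library as a whole had Col1a1 at 705 CPM and Acta2 at 1227 CPM. Cluster 3 held 880 barcodes with a median of 1292 UMIs, and its sums rest on few deep cells, so the ranges below leave it out. Over the other 6, Vgll3 was at 308 CPM in cluster 4 (dividing cells), 376 in cluster 1 (Saa3), 385 in cluster 6 (Nr5a2), 427 in cluster 2 (Mmp13), 432 in cluster 7 (Myh11) and 502 in cluster 5 (Hmcn1). Counting intervals of neighbours overlapped between clusters 1 and 6 (372 to 379 and 378 to 393) and between clusters 2 and 7. In cluster 3 it was 205 CPM (193 to 217), while all 795 cells under 5000 UMIs together had 466 CPM (428 to 506). No cultured cluster of at least 50 cells came near the primary range of Vgll3.

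**Figure D4:**
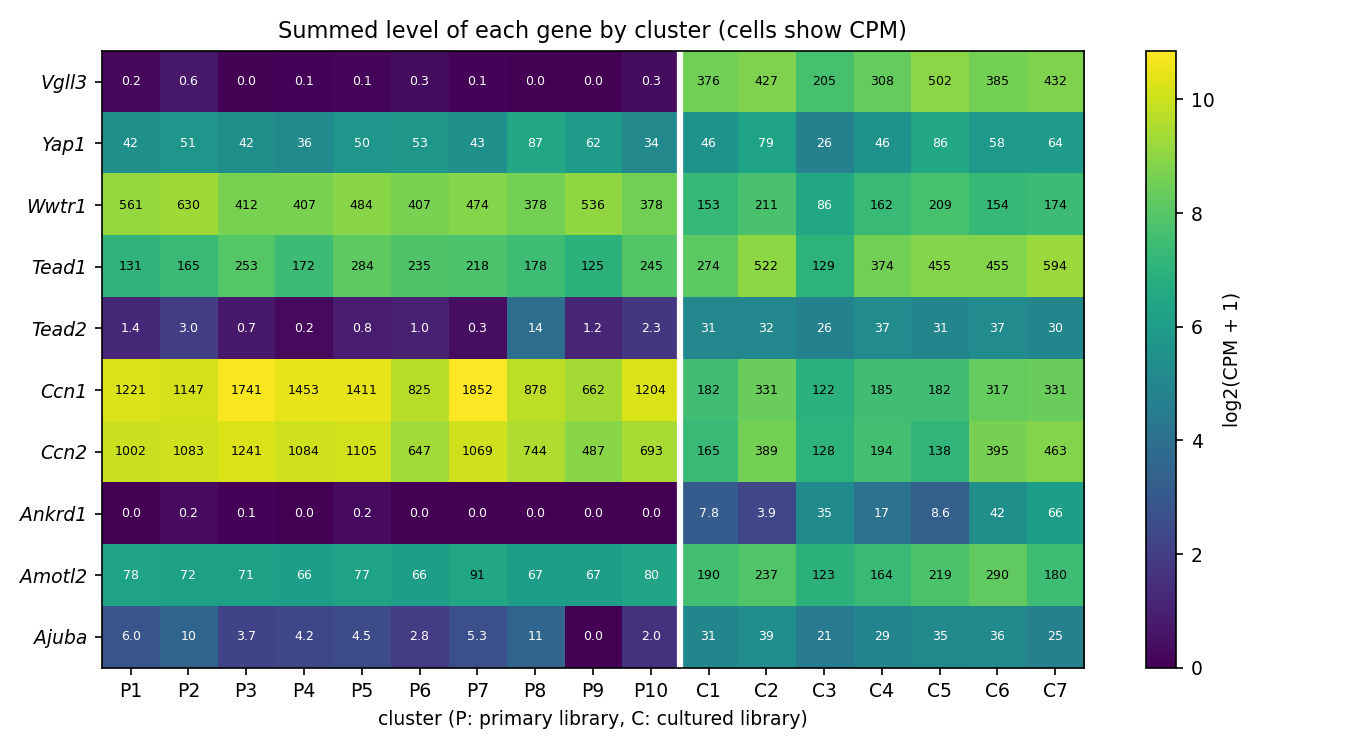
Summed level of the 10 genes in the clusters of at least 50 cells, with color for log2(CPM + 1) and the CPM printed in each field, primary clusters P1 to P10 to the left and cultured clusters C1 to C7 to the right of the white line. Vgll3 was at most 0.608 CPM in primary CDSCs and at least 205 CPM in the cultured clusters (141 and 113 CPM under other cluster settings), and within culture Ankrd1 was highest in C7.

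The order of the targets over these 6 clusters differed from that of Vgll3. Cluster 5, with the most Vgll3, had the least Ccn2, 138 CPM (135 to 142). Ccn2 was highest in cluster 7 at 463 CPM (451 to 475), followed by clusters 6 and 2 at 395 and 389 CPM. Ankrd1 was at 66.1 CPM (61.6 to 70.9) in cluster 7, 42.0 in cluster 6 and 16.7 in cluster 4, and between 3.89 and 8.61 CPM in clusters 1, 2 and 5. Tead1 was also highest in cluster 7, at 594 CPM (580 to 608), and lowest in cluster 1, at 274 CPM. Cluster 7, with 177 cells, had 17732 CPM of summed SRF and MRTF genes against 3846 to 7647 CPM in the other 5. Over the 6 clusters r with that sum was 0.30 for Ccn1, 0.44 for Ccn2, 0.36 for Tead1 and 0.70 for Ankrd1. With the summed immediate early genes r was 0.70 for Ccn1, 0.57 for Ccn2, 0.58 for Tead1 and -0.31 for Ankrd1. The part of either list in these levels was not tested. Amotl2 was highest in cluster 6 at 289.9 CPM, and Tead2 varied least, between 30.4 and 36.7 CPM. The 6 values of log2(CPM + 1) correlated with those of Vgll3 at r = 0.88 for Yap1, 0.71 for Wwtr1, 0.50 for Tead1, 0.38 for Amotl2, 0.27 for Ajuba, 0.22 for Ccn1, 0.04 for Ccn2, -0.13 for Ankrd1 and -0.74 for Tead2. With the shallow cluster 3 included, the 7 values gave r = 0.96 for Yap1, 0.93 for Wwtr1, 0.88 for Tead1, 0.76 for Amotl2, 0.73 for Ajuba, 0.66 for Ccn1, 0.44 for Ccn2, -0.32 for Ankrd1 and 0.39 for Tead2, the last with the opposite sign.

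Between single cells the relations were weak. Of the 45 pairs of the 10 genes, Ccn1 and Ccn2 had the highest correlation in both libraries, r = 0.34 in primary and 0.28 in cultured cells at 5000 UMIs. In culture Vgll3 had r = 0.21 with Amotl2, 0.19 with Tead1, 0.15 with Ccn1 and 0.11 with Ccn2, and 0.005 with Ankrd1. All cells of a library share 1 library preparation, and at these counts weak correlations are no finding.

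Of the 25 Hippo pathway regulators, 4 were at least 4-fold higher and 1 was lower, with a median log2 ratio of 1.02. Among all tested genes these shares were 10.6% and 5.73%, and counts of 4 and 1 of 25 lie near them. The highest were Wwc1, which encodes the scaffold KIBRA, at 0.620 and 15.3 CPM (4.63), the giant cadherin gene Fat4 at 7.71 and 116 CPM (3.91), and the angiomotin gene Amot at 2.98 and 34.8 CPM (3.54). The lowest were Dchs1, which encodes the ligand of FAT4, at 13.1 and 2.39 CPM (-2.46), Rassf1 at 141 and 96.1 CPM (-0.55), and Limd1 at 60.8 and 48.9 CPM (-0.31). Fat4 and Dchs1, a receptor and its ligand, thus differed in opposite directions. Outside the rule for named genes and picked after its values were seen, Lats2 made up 34.5% of the UMIs of the LATS kinase pair in primary CDSCs and 70.4% in cultured CDSCs.

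Of the 23 genes of the YAP/TAZ target signature, 21 reached 10 CPM in one library or both. Of these, 8 were at least 4-fold higher, 3 at least 4-fold lower and 10 between, and the median log2 ratio was 1.09. Among all tested genes 10.6% were at least 4-fold higher and 5.73% lower. The signature is not a separate set, since Ccn1, Ccn2, Ankrd1, Amotl2 and Ajuba belong to it. Ankrd1 and Ajuba are among the 8, and Ccn1 and Ccn2 among the 3. Above Ccn1, Fjx1 and Ccn2 at the low end (Fjx1 at 19.4 and 3.58 CPM, -2.44), the high end held Ankrd1, Dock5 at 2.28 and 60.5 CPM (4.73) and Rbms3 at 23.9 and 451 CPM (4.24). The summed level of the signature was 3618 CPM in primary CDSCs and 3553 CPM in cultured CDSCs, and Ccn1 and Ccn2 together summed to 2381 and 456 CPM. Nearly equal sums thus stood over opposite differences of the members.

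The SRF and MRTF genes, which respond to actin tension beside the TEAD system, were mostly higher in culture. Of 14, 9 were at least 4-fold higher and none was at least 4-fold lower, and their median log2 ratio was 3.06. Among all tested genes 10.6% were at least 4-fold higher and 5.73% lower. Tpm2 was at 14.3 and 516 CPM (5.17), Tagln at 38.5 and 1282 CPM (5.06), and Flna at 24.6 and 338 CPM (3.78). Srf itself was at 19.2 and 7.10 CPM (-1.43), Vcl at 348 and 372 CPM (0.10), and Filip1l at 40.5 and 48.5 CPM (0.26). The smooth muscle and pericyte markers, which share Acta2, Tagln and Cnn1 with this list, summed to 344 CPM in primary CDSCs and 2621 CPM in cultured CDSCs. In culture the shared genes made up most of this sum, at 1227, 1282 and 60.3 CPM. Of the other markers, Cspg4 was at 161 and 40.7 CPM and Mcam at 10.7 and 1.83 CPM, both lower in culture. Myh11, Rgs5, Notch3, Kcnj8 and Abcc9 were below 10 CPM in both libraries. The part of smooth muscle or pericyte cells in the Ankrd1 and Ccn2 values was not tested.

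**Figure D5:**
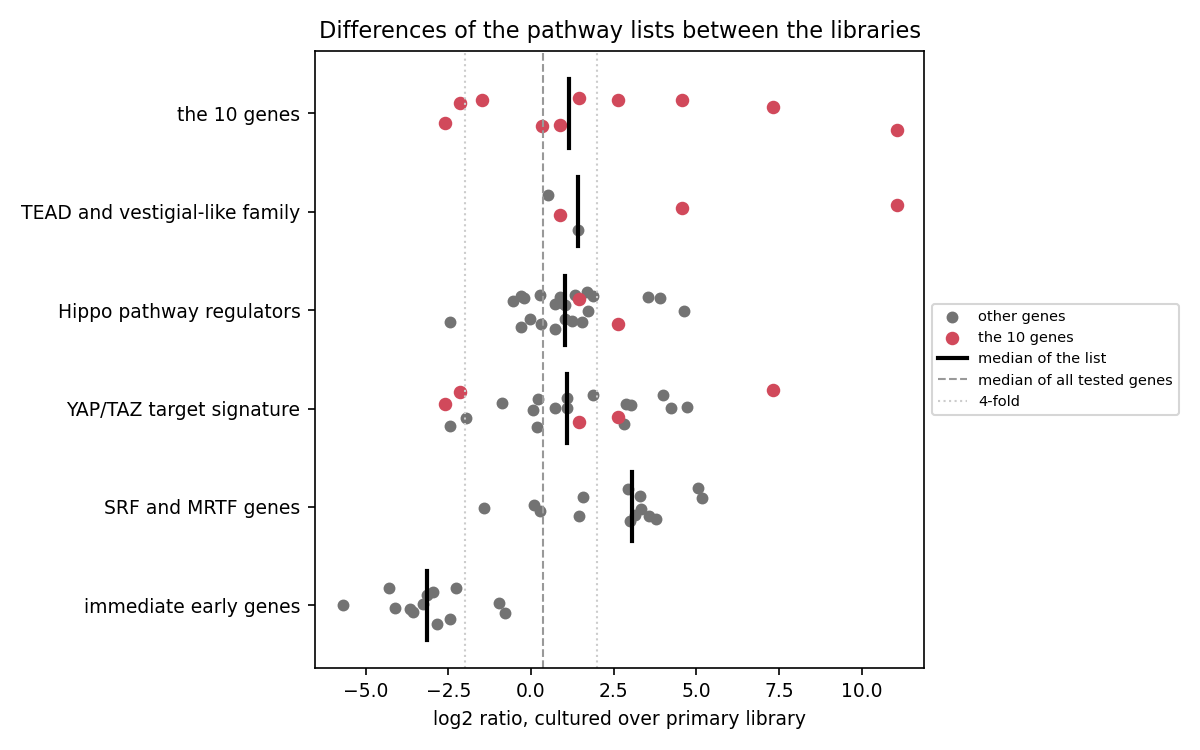
Log2 ratio of the cultured over the primary library (x axis) for genes that reached 10 CPM in one library or both, by list, with the 10 genes in red, list medians as black bars, the median of all 9115 genes as a dashed line and 4-fold as dotted lines. The 14 SRF and MRTF genes centred on 3.06 and the 13 immediate early genes on -3.14, while the 21 signature genes lay on both sides with a median of 1.09.

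The genes whose levels were most like those of Vgll3 over the 7 cultured clusters were Nus1, Sel1l, Tnks1bp1, Uso1, Rxylt1, Rab6a, Arid5b and Ankrd12, with r from 0.99 to 1.00 among 3476 genes with at least 50 CPM in culture. This order rests partly on the shallow cluster 3. Over the 6 other clusters the 8 most like were Nus1, Cflar, Sel1l, Tnks1bp1, Fam76a, Elk3, Rxylt1 and Ankrd12, with r from 0.95 to 0.99, and 5 of them were in both sets. Over the 17 clusters of both libraries the 8 were Eif2s3y, Ereg, Rgs17, Nrn1, Kcnk2, Ano3, Ddx3y and Klhdc8a, with r of at least 0.99. Eif2s3y and Ddx3y are Y-linked and separate the donors, so over both libraries likeness to Vgll3 and the donor cannot be told apart. Ereg, which encodes the growth factor epiregulin, was at 0.0510 CPM in primary CDSCs and 99.5 CPM in cultured CDSCs.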

How the data were processed

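Single-cell RNA sequencing (10x 3′ v3.1 chemistry) covered 1 library of primary and 1 of cultured CDSCs, grouped by the treatment labels. The study's methods name the MobiDrop platform beside the 10x Chromium controller. The authors processed reads with Cell Ranger 7.0.0 and deposited raw UMI counts per gene and barcode. Per the file headers and labels the build was GRCm38 (mm10), although the labels also list GRCm39. Whether intronic reads were counted was not given in the sources used here. Counts of kept barcodes were summed per library and scaled to CPM (UMIs per 1000000). A log2 ratio is cultured over primary CPM, with counts under 3 raised to 3. Counts have exact Poisson, shares exact Clopper-Pearson and ratios exact conditional intervals at 95%, for counting error only. The script was tested on simulated data. Cells were thinned without replacement to 5000 UMIs, and 787 primary and 795 cultured shallower cells were left out of thinned values. Leiden clusters (leidenalg 0.10.2 in scanpy 1.11.5, resolution 0.5, 20 neighbours, 10 principal components) were made per library. A cluster was named from at least 3 fixed markers at 50 CPM and 4-fold over the other cells, with fewer of any other class, or, where no class had 3 such markers, as chondrocyte-like if at least 3 chondrocyte markers reached 1000 CPM. Scrublet called 0 primary and 1 cultured doublet and had not worked, so doublets were kept in the values and the 1118 and 461 highest scores left out as an alternative. TMM factors came from edgeR 4.0.16. Gene coordinates came from GENCODE M21 and promoter windows from RefSeq.

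The 10 genes, the gene lists and the settings were chosen with earlier results of these data known. Named from each pathway list were the 3 highest and 3 lowest log2 ratios among genes that reached 10 CPM in one library or both, and, as most like Vgll3, the 8 genes with the highest Pearson correlation of log2(CPM + 1) over clusters of at least 50 cells, among genes with at least 50 CPM in culture.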

Additional observations from a re-analysis of the deposited data

Results flagged for a closer look

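The cell filter left out 5460 cultured barcodes with a median of 775 UMIs, and their summed counts held a signal of every gene above the level of 3 counts. Vgll3 was at 602.6 CPM (3795 UMIs), Tead1 at 599.9 CPM, Ccn1 at 360.4 CPM, Ccn2 at 344 CPM, Amotl2 at 237 CPM, Wwtr1 at 213 CPM, Yap1 at 110.5 CPM, Ajuba at 48.1 CPM, Tead2 at 24.8 CPM and Ankrd1 at 18.3 CPM. Except for Tead2, each was higher than in the kept cultured cells. In the 150 primary barcodes left out, Vgll3, Tead2 and Ankrd1 had no UMI and Ajuba had 2, while Ccn1 was at 966 CPM, Wwtr1 at 723 CPM, Ccn2 at 680.5 CPM, Tead1 at 462 CPM, Yap1 at 90.4 CPM and Amotl2 at 47.6 CPM. What these shallow barcodes hold was not tested. No group had enough libraries for a search for outlying samples.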

How the results depend on the processing

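The Vgll3 log2 ratio stayed between 10.69 and 11.12 under 10 alternatives, all within its counting interval, and the count of genes at least 4-fold higher was 4 under each. The count of genes at least 4-fold lower was 1 when cells were thinned to 5000 UMIs and 1 when each cell weighed the same, since Ccn2 moved inside 4-fold. Centred on the median of all genes, an alternative added after the data were seen, the Yap1 log2 ratio turned from 0.34 to -0.0307. With TMM scaling the median of all genes was lower by 0.21 on the log2 scale, and no sign among the 10 genes changed. Only Vgll3, Tead2 and Ankrd1 stayed within their counting intervals under TMM, and Tead1 moved from 0.87 to 0.67. Under the 10 alternatives Tead1 ran from 0.50 to 1.06 and Ajuba from 2.27 to 2.70. The counting intervals thus do not cover the choice of processing. With at least 1 CPM in either library, 1615 of all genes were at least 4-fold higher and 960 lower, against 966 and 522. The share of cultured cells with a Vgll3 UMI was 90.9% unthinned and 90.3% at 10000 UMIs per cell. The highest Vgll3 level of a cultured cluster was 992 CPM at Leiden resolution 1.0 and 466 CPM with 30 principal components, against 502 CPM, and the lowest was 141 and 113 CPM, against 205 CPM. The cause was not tested. Leaving out replicates was not run, as each group has 1 library. No paired analysis was possible because each group has 1 library and no test was made.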
